A study of Mus musculus with 8 samples.

Results

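Single long-term haematopoietic stem cells (LT-HSC) of aged mice were divided by how much of their RNA came from immediate early genes. The 8 genes that defined the division were Fos, Fosb, Jun, Junb, Egr1, Ier2, Zfp36 and Nr4a1, and the score of a cell was the percentage of its transcripts that these genes contributed. Cells with at least 2000 transcripts were ranked by score within each library that held 20 or more of them. The library was then split into 3 classes of equal size, up to rounding. The top class was taken as immediate-early-high (IE-high) and the bottom class as immediate-early-low (IE-low). This gave 162 IE-high and 162 IE-low cells out of 495 ranked cells in 7 libraries, with 171 cells in the middle class. The series held 541 cells with at least 1000 transcripts. The members were selected on measured values of the 8 genes, so the levels of these 8 genes are a description of the classes, with no test in these classes. Tests of each gene in classes ranked by the other 7 are given apart below.

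The cells came from bone marrow of untreated male C57BL/6J mice aged 18 months. They were sorted as lineage-negative, CD150+, CD48-, CD34-, Kit+ and Sca1+, and split by surface Dlk1, which is a Notch ligand of the non-canonical kind, into Dlk1+ and Dlk1- cells. RNA was read with mCEL-Seq2, which tags the 3' ends of polyadenylated RNA in single wells, marking each cell by a barcode and each RNA molecule by a UMI (unique molecular identifier); 96 wells made up a library. Of the 8 libraries, 4 Dlk1- (308 ranked cells) and 3 Dlk1+ (187 ranked cells) entered, because Dlk1+ replicate 3 had only 4 cells with 2000 transcripts. The names of the deposited tables place replicates 1 and 2 of each sort group on plate 5 and replicates 3 and 4 on plate 6. Animals behind the libraries are not named in the labels. The p-values for IE-high against IE-low measure how the difference within a library varied over libraries. Those for the sort groups' scores measure the spread between libraries. Either spread may be technical.

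Immediate early genes are transcribed within minutes of a growth factor, cytokine or stress signal, without a need for new protein synthesis. Fos, Fosb, Jun and Junb encode subunits of the AP-1 transcription factor, while Egr1 and Nr4a1 encode a zinc finger factor and an orphan nuclear receptor. Zfp36 encodes an RNA-binding protein that speeds the decay of short-lived mRNAs. The genes are known to take part in stem cell quiescence and activation, and they are also known to be induced when tissue is dissociated and sorted. How the cells were handled was not varied between IE-high and IE-low cells, which came from the same libraries, and the part of handling in the values below was not tested.

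The median score of a library lay between 0.471% (Dlk1- replicate 3) and 1.05% (Dlk1+ replicate 4) of a cell's transcripts. Single cells ranged from 0 to 3.14%, and 2 cells, both in Dlk1- replicate 4, had no transcript of any of the 8 genes. The median IE-high cell of a library scored between 1.16% and 1.81%, and the median IE-low cell between 0.126% and 0.420%. The classes were cut from a continuous range. In Dlk1- replicate 1 the lowest IE-high cell scored 0.824% and the highest middle cell 0.819%, and the highest IE-low cell scored 0.314% and the lowest middle cell 0.322%. Because the cuts were set within each library, they differed between libraries: an IE-high cell began at 0.824% in Dlk1- replicate 1 but at 1.41% in Dlk1+ replicate 4, where IE-low cells reached 0.706%. In summed transcripts the share of the 8 genes was 13.5 times as high in IE-high as in IE-low cells in Dlk1- replicate 3, the widest contrast, and 4.36 times as high in Dlk1+ replicate 2, the narrowest. The 3 Dlk1+ libraries had ratios of 6.63, 4.36 and 4.99, and the Dlk1- libraries had ratios of 8.64, 6.23, 13.5 and 8.04.

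**Figure D1:**
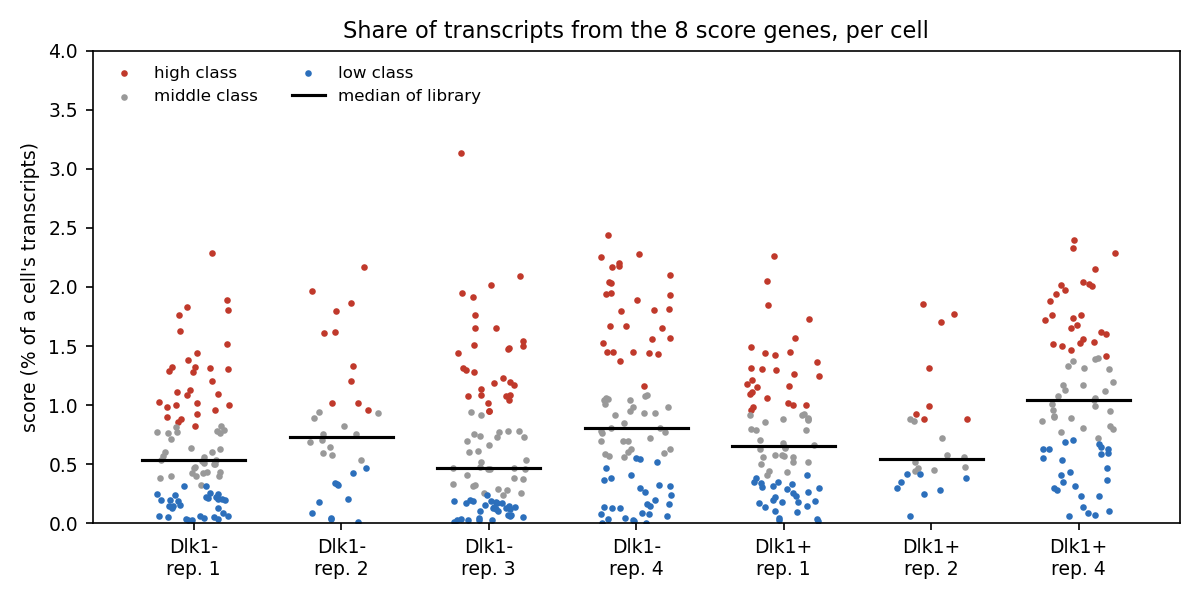
Score of each ranked cell (percentage of the cell's transcripts from the 8 score genes) in the 7 libraries; red, grey and blue points are cells of the top, middle and bottom class, and black lines are library medians. The classes meet without a gap, and the library medians run from 0.471% to 1.05%.

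Median scores did not differ between the sort groups beyond the spread between libraries. Median scores averaged 0.745% ± 0.266 (SD, n = 3) in Dlk1+ and 0.634% ± 0.158 (SD, n = 4) in Dlk1- libraries, and an exact permutation test of the library medians gave p = 0.571 over 35 assignments. Within plate 5, Dlk1+ replicates 1 and 2 had medians of 0.650% and 0.539%, against 0.532% and 0.729% in Dlk1- replicates 1 and 2. On plate 6, Dlk1+ replicate 4 had 1.05%, against 0.471% and 0.803% in Dlk1- replicates 3 and 4. Without Dlk1+ replicate 4 the sign of the difference turned, to -0.0393 percentage points.

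Fos, the AP-1 subunit that gave 30.7% of all score transcripts in IE-high cells, ranged from 3333 to 6340 CPM, a count scaled to the depth of a sum, of all transcripts (median 4200) in the IE-high sums and from 92.4 to 733 (median 421) in the IE-low sums. Jun was the leading gene of the IE-low cells, with 26.8% of their score transcripts against 16.4% in IE-high cells. Jun ranged from 1777 to 2880 CPM of all transcripts in the IE-high sums (median 2354) and from 317 to 809 in the IE-low sums (median 557). For both genes no library's IE-high class reached down to any IE-low class, which the ranking favours by construction. After thinning every cell to 2000 UMIs, Fos was seen in 97.7% ± 4.68 of IE-high and 35.4% ± 15.7 of IE-low cells (SD, n = 7 libraries), and Jun in 96.2% ± 4.63 and 55.2% ± 9.65.

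The other score genes were sparser. Nr4a1 was seen in 60.5% ± 29 of IE-high and 10.2% ± 10.3 of IE-low cells at that depth, and Ier2, a nuclear immediate early protein, in 68.1% ± 7.81 and 35.5% ± 17.8 (SD, n = 7 libraries). The median IE-high cell showed between 5 and 7 of the 8 genes, depending on the library, and the median IE-low cell between 1.5 and 4. Dlk1+ replicate 2 stood apart for Zfp36 and Nr4a1: its IE-high class had 211 and 127 CPM of all transcripts, the lowest of the 7 libraries for both genes. These were only 5 and 3 transcripts, against 1 and 1 in its IE-low class, and lay below the 241 and 197 CPM of its middle class. The unused barcodes of the tables, which should hold no cell, carried between 0.093 and 0.292 score UMIs each, against 5.23 to 24.9 in an average IE-low cell of the same libraries. The transcripts in IE-low cells were thus above the level of these unused barcodes in every library compared. Unused barcodes do not give the level of a well that was filled without a cell.

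**Figure D2:**
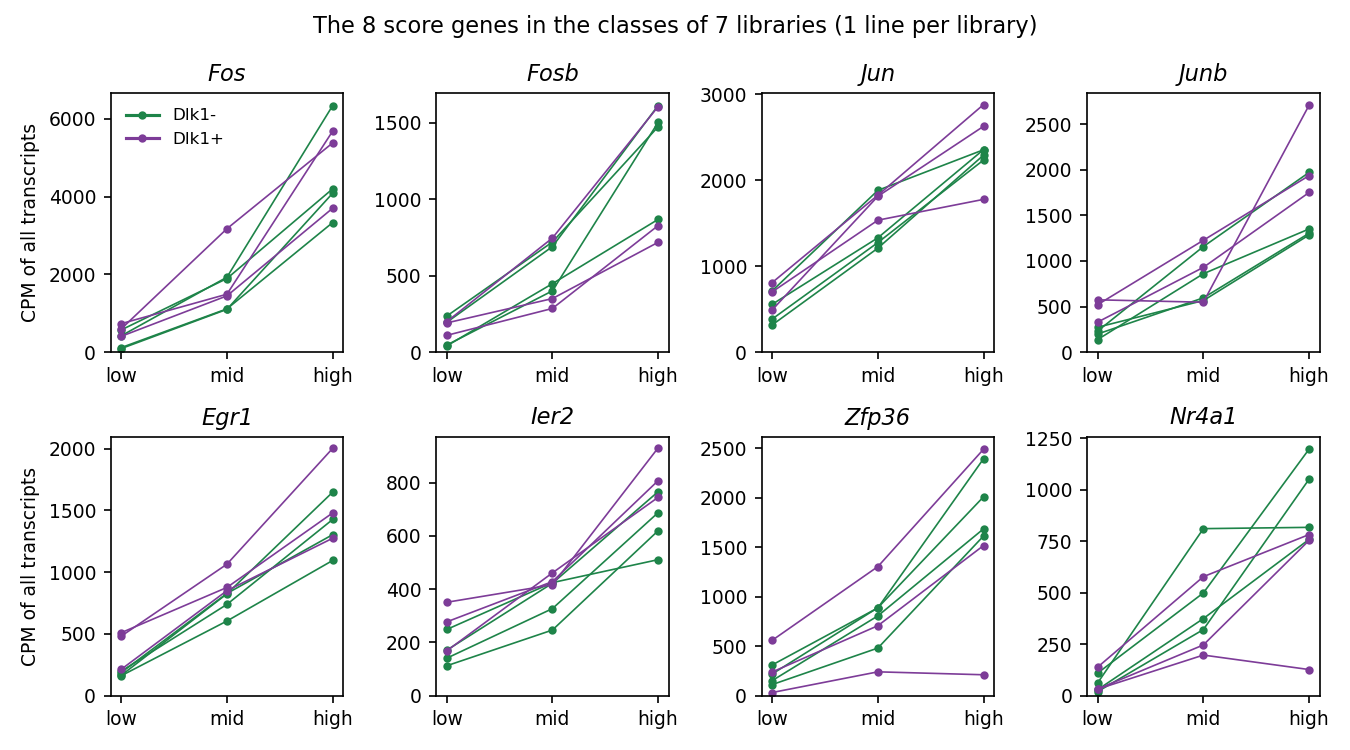
CPM of all transcripts summed over a class of each score gene in the low, middle and high classes, with 1 line per library; green lines are Dlk1- and purple lines Dlk1+ libraries. Fos rises from a median of 421 to a median of 4200, and the purple line that stays near the bottom for Zfp36 and Nr4a1 is Dlk1+ replicate 2.

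The 8 genes were also higher in the top class when each was kept out of the ranking. Each gene in turn was left out, the cells were ranked by the other 7, and the left-out gene was tested with limma-voom on sums per class, with library as a block. All 8 genes were higher in the top class so defined. Nr4a1 averaged 777 ± 347 CPM in the top and 74.9 ± 50.7 CPM in the bottom classes (SD, n = 7), a log2 fold change of 3.40 ± 0.28 (SE, limma adjusted p = 1.79e-12 over the 8 genes), and was higher in 6 of 7 libraries. Each of the others was higher in 7 of 7 libraries. Fos averaged 4226 ± 1103 against 612 ± 354 CPM, a log2 fold change of 2.88 ± 0.19 (limma adjusted p = 1.01e-14). The smallest fold changes were those of Jun (1.68 ± 0.12) and Ier2 (1.70 ± 0.16) on the log2 scale. Across cells within a library, thinned to 2000 UMIs, the median Spearman correlation of the 28 gene pairs lay between 0.263 and 0.429 in 6 libraries and at 0.111 in Dlk1+ replicate 2. The cells of a library share their preparation, and these correlations are descriptions. All 8 genes were measured against the same total, so a cell rich in transcripts of another kind is low in all 8 alike. Ranking by the other 7 does not remove this, and its part in the values of the left-out genes was not tested.

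The rest of the transcriptome was compared on transcripts summed per class, with the 8 score genes removed, by limma-voom with library as a block. CPM below are relative to the transcripts outside the score. The fold changes also use a scaling factor per sum (trimmed mean of M-values), which the printed CPM and counts of libraries do not. The factor was larger for the IE-high sum in all libraries but Dlk1- replicate 4 and Dlk1+ replicate 4. It was most unequal in Dlk1+ replicate 1 (0.910 for IE-high, 0.685 for IE-low). Where it is larger for IE-high, unscaled CPM count more genes as higher in IE-high cells. Of 1837 genes tested, 68 were higher (3.70%) and 49 lower (2.67%) in IE-high cells at an adjusted p under 0.05, and 330 genes had an unadjusted p under 0.05. The median log2 fold change of all tested genes was 0.02. The filter on low counts asked for 7 of the 14 sums, so that a gene could pass through its IE-high sums alone; the counts and medians of lists given below are descriptions of the members that passed. With the filter met in all sums, 590 genes were tested, 20 were higher and 44 lower. Counts also fell in the fits without Dlk1- replicate 1 or 4 (45 and 43 higher) and without Dlk1+ replicate 1 (31 lower). Of the 68 higher genes, 47 were higher in all 7 libraries, as were 6.31% of all genes tested; of the 49 lower genes, 14 were lower in all 7, as were 1.47% of all genes tested. In 18 of the higher genes no IE-high class overlapped any IE-low class, which held for 20 genes (1.09%) of all those tested. The mean CPM of the middle class lay between the other classes for 67 of the 68 higher genes, the exception being Klf2. The same held for 41 of the 49 lower genes. The fit did not use the middle class, but calling genes on the difference between IE-high and IE-low favours a value in between. A share over all genes tested is not given, so these counts for the middle class are a description. All 68 higher genes kept their sign in the libraries of each plate taken alone, as did 47 (plate 5) and 49 (plate 6) of the lower genes. The genes were called from these same libraries, which favours such agreement, so these counts by plate are a description.

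Most other immediate early genes that could be tested rose with the score. Of 34 genes on a list of immediate early factors outside the score, 13 passed the filter on low counts. Of these, 9 were higher and none lower, and the median log2 fold change was 1.53. Sparse members could pass through their IE-high sums alone, so the median of all genes tested, 0.02, is no fair reference for it. Nr4a2, an orphan nuclear receptor of the same family as Nr4a1, had the largest fold change. It ranged from 300.0 to 620.9 CPM (median 452) in the IE-high sums and from 6.61 to 192 CPM (median 32.4) in the IE-low sums. The ranges did not overlap, and the log2 fold change was 3.45 ± 0.39 (SE, limma adjusted p = 3.63e-07). Klf6, a zinc finger factor, rose by 1.93 ± 0.24 in 6 of 7 libraries, and Ier3 and the nuclear factor Csrnp1 rose by 1.83 ± 0.28 and 1.82 ± 0.34 in 7 of 7. Csrnp1 passed the filter on low counts in only 3 of the 7 fits that each left out a library, and kept the call in those. Cebpb, a factor of myeloid and emergency programmes, rose by 1.55 ± 0.27. Mcl1, an anti-apoptotic Bcl2 relative that stem cells need to survive, ranged from 399 to 1243 CPM in IE-high and from 106 to 480 CPM in IE-low sums, a log2 fold change of 1.54 ± 0.16 (limma adjusted p = 1.07e-07). The kinase gene Pim1 (0.69 ± 0.12) and the cyclin gene Ccnl1 (1.48 ± 0.20) were also higher in 7 of 7 libraries.

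Not every immediate early gene followed. Klf10 did not pass (limma adjusted p = 0.996), nor did Myc, Irf1 and Ier5, with log2 fold changes of 0.35, 0.70 and 0.90. Klf2, a quiescence-linked factor, passed with 1.53 ± 0.45 but was higher in only 5 of 7 libraries, and its call was lost without Dlk1- replicate 1, 2 or 4 (limma adjusted p up to 0.191). Among AP-1 genes outside the score, 2 of 12 could be tested. Jund, a subunit that is present at high levels in many resting cells, ranged from 1659 to 3648 CPM (median 2095) in the IE-high and from 335 to 1056 CPM (median 581) in the IE-low sums. It had the smallest adjusted p of all genes tested (log2 fold change 1.77 ± 0.10, limma adjusted p = 3.81e-13), with no overlap between the classes. Mafg had a log2 fold change of 0.20 and did not pass.

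Most tested genes whose products damp the same signals were higher as well. Of 29 feedback regulators, 10 were tested, 8 were higher and none lower, with a median log2 fold change of 1.78. Btg2, an antiproliferative partner of the mRNA deadenylase, ranged from 85.7 to 529 CPM (median 414) in the IE-high and from 0 to 74.7 CPM (median 36.7) in the IE-low sums. Its log2 fold change was 3.31 ± 0.37 (SE, limma adjusted p = 2.55e-07), and the ranges did not overlap. The phosphatase genes Dusp1 (1.81 ± 0.21) and Dusp2 (1.75 ± 0.25), which switch off mitogen-activated kinases, rose in 7 of 7 libraries. Dusp1 ranged from 370 to 762 CPM in the IE-high and from 33 to 311 CPM in the IE-low sums. Per1, a circadian repressor that is also an immediate early gene, rose by 2.06 ± 0.31 in 7 of 7 libraries. Socs3, an inhibitor of cytokine receptor signalling, rose by 2.26 ± 0.30 in 6 of 7, and Rgs1, which limits G-protein signals, by 1.86 ± 0.33 in 5 of 7. Rgs1 passed the filter on low counts in only 4 of the 7 fits that each left out a library, and kept the call in those. Zfp36l2, a relative of Zfp36, rose by 0.50 ± 0.09, and Btg1 by 0.86 ± 0.26. Btg1 lost the call in 5 of the 7 fits that each left out a library, namely without any Dlk1- library or without Dlk1+ replicate 1 (limma adjusted p up to 0.179). Tsc22d3 (0.54) and Tob2 (0.45) did not pass the test.

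Of 16 genes on the p53 and growth arrest list, 2 were tested and both were higher. Sparse members of this list, as of those above, could enter the test through their IE-high sums alone. Cdkn1a, which encodes the cyclin-dependent kinase inhibitor p21, ranged from 163 to 500 CPM (median 240) in the IE-high and from 6.61 to 128 CPM (median 48.9) in the IE-low sums, without overlap. Its log2 fold change was 2.42 ± 0.29 (SE, limma adjusted p = 6.41e-07). Ppp1r15a (GADD34), which returns translation to normal after stress, rose by 1.81 ± 0.20. Of 3 tested NF-kB genes, Nfkbiz, a nuclear inhibitor-like cofactor of NF-kB, rose by 2.78 ± 0.37 in 7 of 7 libraries, while Nfkbia (0.24) and Nfkb1 (0.18) did not pass. Klf9, a glucocorticoid-responsive factor, rose by 1.70 ± 0.18 in 7 of 7 libraries. Atf4, the factor of the integrated stress response, rose by 0.80 ± 0.23 in 6 of 7, and it was the 1 of 3 tested members of its list that passed. Atf4 lost the call without any of the Dlk1- libraries and without Dlk1+ replicate 1 (limma adjusted p up to 0.111).

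Most chaperone genes did not pass. Of 10 tested, Dnajb1, a heat shock protein 40 cochaperone, rose by 1.52 ± 0.21 (limma adjusted p = 6.36e-06) in 7 of 7 libraries, and Hspd1, the mitochondrial chaperonin, fell by 0.71 on the log2 scale (SE 0.20) in 6 of 7. Hspd1 lost the call without Dlk1- replicate 1 or 3 or Dlk1+ replicate 1 or 4 (limma adjusted p up to 0.102). The other 8 did not pass, among them Hspa8 (0.18) and Hsp90aa1 (-0.25). None of 6 tested kinases and factors upstream of immediate early genes passed; Nras had a log2 fold change of -0.11 ± 0.20.

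**Figure D3:**
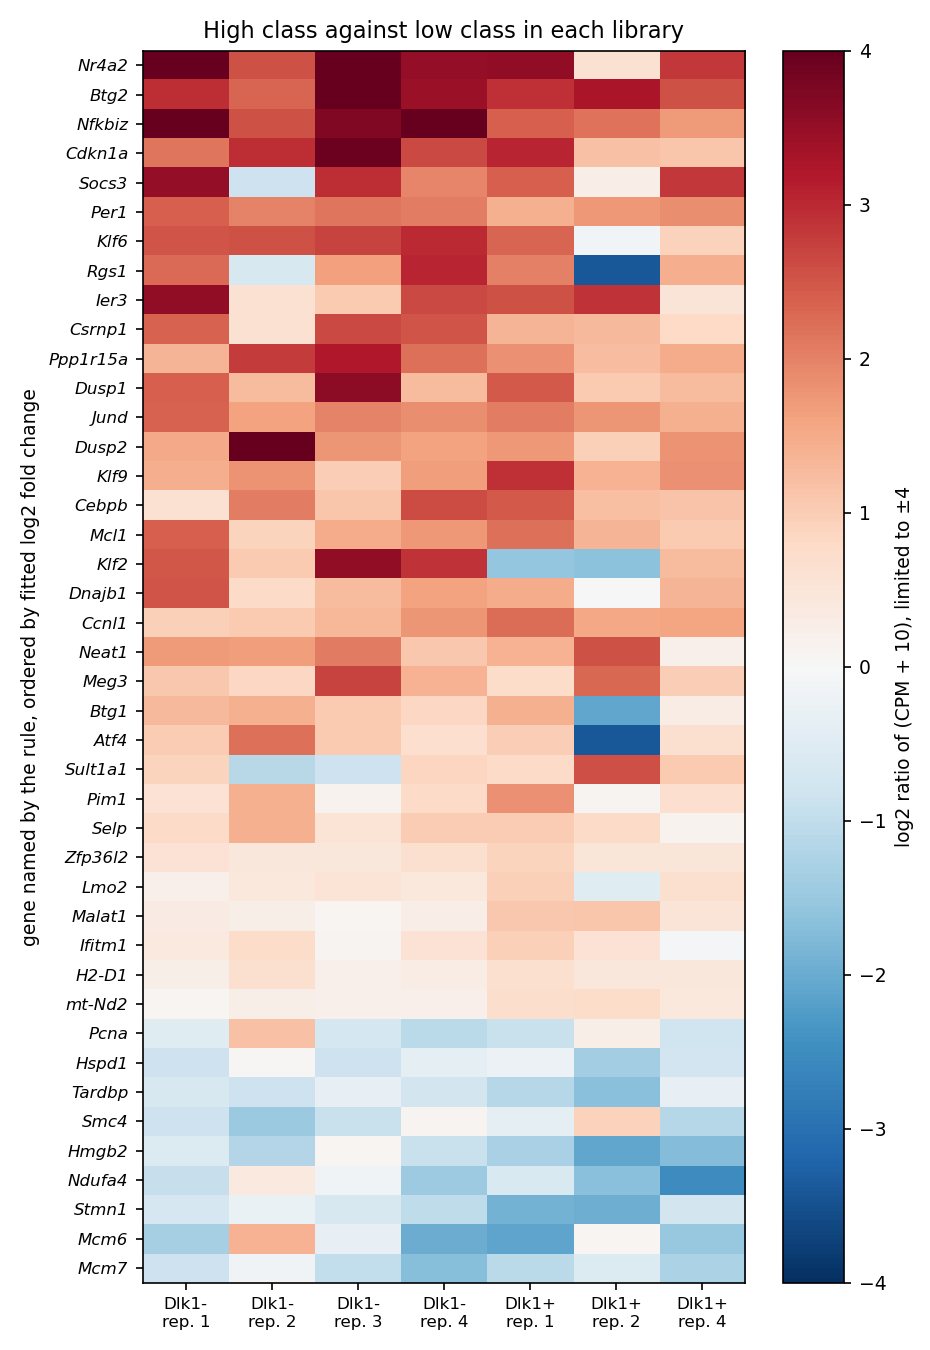
Log2 ratio of (CPM + 10) between the IE-high and IE-low class of each of the 7 libraries (columns) for the called genes named by the rule, without predicted transcripts (rows, ordered by fitted log2 fold change); red is higher and blue lower in IE-high cells. Nr4a2 to Mcl1 are mostly red across the columns, and the darkest blue cells, of Atf4 and Rgs1, lie in Dlk1+ replicate 2.

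Further genes of the 68 were outside every list. H3f3b, which encodes the replication-independent histone H3.3, ranged from 2013 to 2838 CPM in the IE-high and from 722 to 1353 CPM in the IE-low sums, a log2 fold change of 1.23 ± 0.08 (limma adjusted p = 3.89e-12). Tsc22d1 rose by 1.05 ± 0.12 in 7 of 7 libraries. Gabarapl1 (0.79 ± 0.17), Map1lc3b (0.69 ± 0.16) and Pink1 (1.24 ± 0.27) were also among them. These 5 genes were chosen after their values were seen. Nuclear long noncoding RNAs were higher in 3 of 7 tested and lower in none. Neat1, the scaffold of paraspeckles, ranged from 533 to 986 CPM in the IE-high and from 160 to 618 CPM in the IE-low sums (1.20 ± 0.17), Meg3, a maternally expressed imprinted RNA, had 1.09 ± 0.20 and Malat1 0.36 ± 0.07. Kcnq1ot1 (0.07) and Gas5 (0.14) did not pass the test.

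Promoters of the higher genes were searched for the cyclic AMP response element (CRE), which CREB and related factors bind and through which immediate early genes are known to respond, in the 250 bases before each RefSeq start site on build GRCm38.p6. A palindromic CRE, TGACGTCA, was found for 5 of 52 higher genes with a listed promoter (9.62%), for 51 of 1361 tested genes (3.75%) and for 478 of all 27025 listed genes (1.77%). Among the lower genes it was found for 1 of 20, Mif, and among the 8 score genes for none of the 6 with a listed promoter. A gene counted when any of its listed start sites held the letters, on either strand. The shorter TGACG, which is part of the CRE, was found for 48.1% of the higher, 35% of the lower, 35.5% of the tested and 19.8% of all listed genes and for 4 of the 6 score genes. The AP-1 site TGANTCA was found for 7.69% of the higher, 5% of the lower, 5.73% of the tested and 7.82% of all listed genes and for 0 of the 6 score genes. Another element, the CArG box, was found for 1.92%, 0%, 1.47% and 1.62% in the same order and for 1 of the 6 score genes. The stretches around the CRE of the 5 higher genes are shown 5′ to 3′ on the gene's strand, with the element in capitals, because these are the places where the promoters of genes that moved with the score carry the same 8 letters.
Btg2 (chr1:134079268-134079367, minus strand): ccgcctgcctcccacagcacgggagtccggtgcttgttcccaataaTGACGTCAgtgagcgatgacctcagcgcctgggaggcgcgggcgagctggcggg
Dusp1 (chr17:26508562-26508661, minus strand): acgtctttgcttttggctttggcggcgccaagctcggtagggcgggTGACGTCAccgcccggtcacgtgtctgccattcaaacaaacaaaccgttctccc
Ppp1r15a (chr7:45526269-45526326, minus strand): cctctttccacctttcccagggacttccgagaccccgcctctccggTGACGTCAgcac
Ccnl1 (chr3:65958250-65958313, minus strand): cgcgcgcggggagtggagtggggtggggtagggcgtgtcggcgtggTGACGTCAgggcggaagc
Meg3 (chr12:109540893-109540992, plus strand): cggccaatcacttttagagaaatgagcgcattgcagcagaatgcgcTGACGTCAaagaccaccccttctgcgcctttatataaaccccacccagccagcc
The element began 166 bases before the start of Btg2, 143 before that of Dusp1, 57 before that of Meg3, 18 before that of Ccnl1 and 12 before that of Ppp1r15a. A match of letters is a description and was not tested for binding.

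The few genes of DNA replication and mitosis that could be tested were mostly lower in IE-high cells. Of 27 S-phase genes, 4 were tested and 3 were lower. Mcm7, a subunit of the replicative helicase, ranged from 41.7 to 129 CPM (median 77.6) in the IE-high and from 99.6 to 192 CPM (median 149) in the IE-low sums. The ranges overlapped, but Mcm7 was lower in IE-high cells in 7 of 7 libraries, with a log2 fold change of -1.20 ± 0.24 (SE, limma adjusted p = 8.6e-04). Mcm6, another subunit, and Pcna, the polymerase clamp, had log2 fold changes of -1.16 ± 0.31 and -0.70 ± 0.19 and were lower in 5 of 7 libraries each. Both lost the call without Dlk1- replicate 1, Dlk1- replicate 4 or Dlk1+ replicate 1 (limma adjusted p up to 0.0675 and 0.104). The fourth gene, Dut, had -0.81 and did not pass. Of 29 G2M-phase genes, 3 were tested and Hmgb2 (-0.94 ± 0.21) and Smc4 (-0.82 ± 0.23) were lower, Smc4 not without Dlk1- replicate 1 or 2 (limma adjusted p up to 0.141) and not without the cells rich in predicted transcripts described below (-0.66, limma adjusted p = 0.0941). Stmn1, a tubulin-binding protein of dividing cells, ranged from 132 to 328 CPM in the IE-high and from 286 to 1186 CPM in the IE-low sums (-1.06 ± 0.18), in 7 of 7 libraries.

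Cells rich in cycle transcripts were few. G2M-list genes made up 0.0297% ± 0.0144 of the transcripts of the median IE-high and 0.0400% ± 0.0144 of those of the median IE-low cell (SD, n = 7; exact sign-flip test, p = 0.0312, adjusted p = 0.125 over 8 measures). In transcripts summed over a class, an alternative added after seeing the data, the G2M share was 0.0581% ± 0.0349 against 0.191% ± 0.117 and lower in 7 of 7 libraries (exact sign-flip test, p = 0.0156, the smallest that 7 libraries can give, adjusted p = 0.039 over 5 measures). The S-phase share did not pass in either form. It was 0.0555% ± 0.0125 in the median IE-high and 0.0651% ± 0.0194 in the median IE-low cell, lower in 5 of 7 libraries (exact p = 0.281, adjusted p = 0.525), and in summed transcripts 0.0963% ± 0.0413 against 0.149% ± 0.0416, lower in 6 of 7 (exact p = 0.109). Cells with more than 0.5% of their transcripts from the G2M list numbered 2 of 162 IE-high, 11 of 171 middle and 8 of 162 IE-low cells, and cells with more than 0.5% from the S-phase list 2, 4 and 12. Both limits were chosen after seeing the data.

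**Figure D4:**
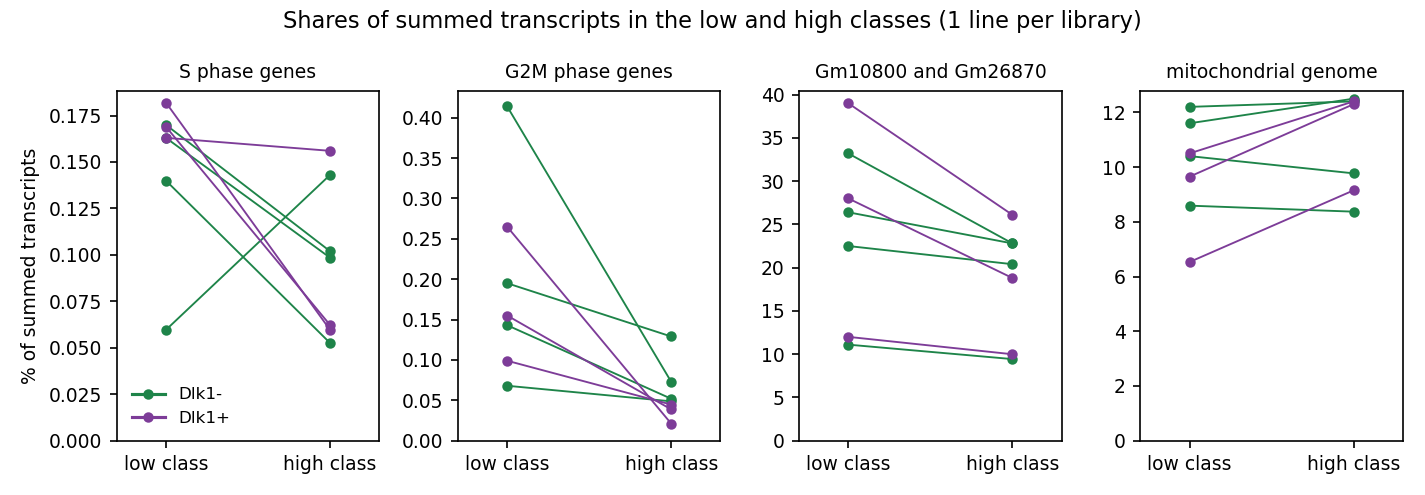
Percentage of summed transcripts from S-phase genes, G2M-phase genes, the predicted transcripts Gm10800 and Gm26870, and the mitochondrial genome in the low and high classes, with 1 line per library; green is Dlk1- and purple Dlk1+. The G2M share falls along every line, and the S-phase share along 6 of 7 lines.

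Predicted transcripts made up much of the lower set. Of the 49 lower genes, 24 were predicted or clone-named transcripts, against 99 of the 1837 genes tested (5.39%) and 2 of the 68 higher genes. They included Gm26917 (-2.32 ± 0.31), Gm29055 (-0.98 ± 0.10) and the abundant pair Gm10800 (-0.43 ± 0.07) and Gm26870 (-0.56 ± 0.07). Several of these may be near-identical copies of one another, which was not checked, so the division of reads among them is uncertain. Gm10800 and Gm26870 together held 18.6% ± 6.49 of the summed transcripts of IE-high and 24.6% ± 10.3 of those of IE-low cells, lower in 7 of 7 libraries (SD, n = 7; exact sign-flip test, p = 0.0156, adjusted p = 0.039 over 5 measures). In the median cell the share was 16.9% ± 6.15 and 18.7% ± 8.75, lower in 5 of 7 (exact p = 0.141, adjusted p = 0.375 over 8 measures). The difference in sums came with a small number of cells. Cells with more than 50% of their transcripts from the pair, a limit chosen after seeing the data, numbered 2 of 162 IE-high, 8 of 171 middle and 16 of 162 IE-low cells, the last in 6 libraries. These 16 cells had a median ribosomal protein share of 3.22%, against 11.7% in the other IE-low cells, and a median of 5807 transcripts against 4848. Without such cells the summed share of the pair was 18.1% ± 6.11 in IE-high and 17.9% ± 7.34 in IE-low cells, higher in 4 of 7 libraries (exact p = 0.828). The G2M share remained lower in 7 of 7 libraries (0.0593% ± 0.0372 against 0.229% ± 0.16, exact p = 0.0156).

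When the cells rich in the pair were left out before ranking, an alternative added after seeing the data, 71 genes were higher and 31 lower of 1675 tested. Of the 24 lower predicted or clone-named transcripts, 22 were tested and 1, Gm26917, was called again (-2.31, limma adjusted p = 8.59e-07), whereas 22 of the 25 other lower genes and 58 of the 68 higher genes were. Gm29055 then had -0.23 (limma adjusted p = 0.101) and Gm26870 -0.07 (0.576). Among higher genes, Atf4 (0.73, limma adjusted p = 0.06) and Btg1 (0.84, limma adjusted p = 0.054) lost the call. The predicted transcripts are in the denominator of the score, so a cell with many of them scores lower by construction. With the pair left out of both score and fit, 101 genes were higher and 47 lower, and 65 of the 68 higher genes and 31 of the 49 lower genes were called again. Gm10717 then had -0.09 (limma adjusted p = 0.83), and Gm26917 -2.19 (limma adjusted p = 2.57e-06). The lower genes with gene names included Ndufa4 (-1.03 ± 0.27), a respiratory chain component whose call was lost without Dlk1- replicate 1 or 4 (limma adjusted p up to 0.0805), Mif, a cytokine, Nop58, a small nucleolar RNP protein, and Actb (-0.31 ± 0.07).

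Stem cell identity genes were detected in both classes. All 10 LT-HSC markers were present, with a summed level of 2010 to 3250 CPM in the IE-high and 1480 to 2410 CPM in the IE-low sums, higher in IE-high cells in 6 of 7 libraries. Of 28 genes on a longer list, 21 were tested and 1 was higher, Lmo2, a cofactor of the stem cell transcription complex (0.40 ± 0.10, limma adjusted p = 0.0112); its call was lost without Dlk1- replicate 4 or Dlk1+ replicate 1 or 4 (limma adjusted p up to 0.0722). The other 20 did not pass, and 3.70% of all genes tested were higher. Log2 fold changes were above 0 for 20 of the 21, against 977 of all 1837 genes tested. With limma on log2(CPM + 10), 17 of the 21 were above 0. Hlf had 0.35 (limma adjusted p = 0.0652), Procr, the protein C receptor that marks LT-HSC, 0.62 (0.145), Kit 0.04 and Meis1 0.01. The list's median log2 fold change was 0.20. Genes reported to rise in aged HSC had a median of 0.38 over 13 tested members; Selp, a platelet and endothelial adhesion receptor, rose by 0.68 ± 0.16 and Sult1a1 by 0.76 ± 0.22, and the other 11 did not pass. Selp lost the call without Dlk1- replicate 4 (limma adjusted p = 0.0642), and Sult1a1 without Dlk1- replicate 1 or 4 or Dlk1+ replicate 2 or 4 (limma adjusted p up to 0.147). Among 7 tested quiescence genes none passed, with Cdkn1c, the kinase inhibitor p57, at 0.41 and Cdk6, the kinase of cycle entry, at -0.39. H2-D1 of 8 tested MHC class I genes rose by 0.30 ± 0.07, and Ifitm1 of 4 tested interferon genes by 0.32 ± 0.09. None of 72 ribosomal protein genes passed. Of 15 mitochondrial genome transcripts, mt-Nd2 rose by 0.22 ± 0.06. H2-D1 lost the call without Dlk1- replicate 4 (limma adjusted p = 0.0534), and Ifitm1 and mt-Nd2 lost it in 4 of 7 such fits each, with limma adjusted p up to 0.283 and 0.122.

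Dlk1 did not pass the filter on low counts. In Dlk1+ libraries it stood at 415, 986 and 642 CPM in the IE-high and at 343, 736 and 645 CPM in the IE-low sums of replicates 1, 2 and 4. In Dlk1- libraries it stayed between 0 and 59.2 CPM in all classes. It was higher in the IE-high than in the IE-low class in 5 of 7 libraries.

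Markers of other blood cells were low, with 1 exception. None of 4 T-cell markers was detected, and neither were Lyz2, Ppbp, Car1, Alas2 or Cdh5. The erythroid sum was 0 in all IE-high and at most 12.4 CPM in IE-low sums, the B-cell sum at most 44.4 CPM in any class, and the megakaryocyte sum 44.4 to 171 CPM against 32 to 200 CPM. Myeloid markers summed to 251 to 574 CPM in IE-high and 124 to 7380 CPM in IE-low sums. The highest value came from 1 IE-low cell of Dlk1+ replicate 4 with 1724 transcripts of the neutrophil genes S100a8 and S100a9, 4.62% of its RNA; no IE-high cell had more than 1. Myeloid genes tested, Prtn3 (0.28) and Csf3r (-0.12), did not pass.

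IE-high cells were slightly shallower. The median log2 number of transcripts per cell was 12.1 ± 0.348 in IE-high and 12.2 ± 0.237 in IE-low cells (SD, n = 7), lower in 7 of 7 libraries by 0.146 on average (exact sign-flip test, p = 0.0156, the smallest possible, adjusted p = 0.125 over 8 measures). Sums per class ran from 23341 to 179951 transcripts. After thinning to 2000 UMIs, genes per cell were 982 ± 48.5 and 977 ± 74.4 (exact p = 0.656). The median mitochondrial share was 10.7% and 10.6% (exact sign-flip test, p = 0.75), and the ribosomal protein share 11.4% and 11.5% (exact sign-flip test, p = 0.953). The median well barcode number was 105.5 and 99.4 (exact sign-flip test, p = 0.328). In summed transcripts the ribosomal protein share was 11.4% in IE-high and 10.3% in IE-low cells, higher in 6 of 7 libraries (exact sign-flip test, p = 0.0312, adjusted p = 0.052 over 5 measures), and the mitochondrial share 10.99% and 9.92%, higher in 5 of 7 (exact p = 0.109). Without the cells rich in Gm10800 and Gm26870 the ribosomal protein shares were 11.5% and 11.6% (exact p = 0.938). With cells of at least 3000 transcripts only, 65 genes were higher and 41 lower, and 56 of the 68 and 36 of the 49 were called again.

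The contrast itself varied with the sort group in 9 of 1837 genes (0.490%) by an interaction term in limma-voom, and 136 genes had an unadjusted p under 0.05. Klf6 had a log2 fold change of 2.82 in the Dlk1- libraries and 1.01 in the Dlk1+ libraries fitted alone, an interaction of -1.75 ± 0.36 (SE, limma adjusted p = 7.28e-03). Its log2 ratio of (CPM + 10) lay between 2.52 and 2.98 in the 4 Dlk1- libraries and was 2.33, -0.11 and 0.91 in the Dlk1+ libraries. The call was lost without Dlk1- replicate 4 (-1.55, limma adjusted p = 0.0689) and without Dlk1+ replicate 4 (-1.57, limma adjusted p = 0.13). Nfkbiz, with 4.37 in Dlk1- and 1.88 in Dlk1+ libraries, had an interaction of -2.46 ± 0.59 (limma adjusted p = 0.0336), which passed in only 1 of 7 fits that each left out a library. Malat1 was the 1 gene of the 9 with a larger rise in Dlk1+ libraries (0.46 ± 0.11), and it passed in 2 of 7 such fits. The median IE-low cell also scored higher in the 3 Dlk1+ libraries (0.224%, 0.323% and 0.420%) than in the 4 Dlk1- libraries (0.126% to 0.205%), so that sort group and width of the contrast cannot be told apart.

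**Figure D5:**
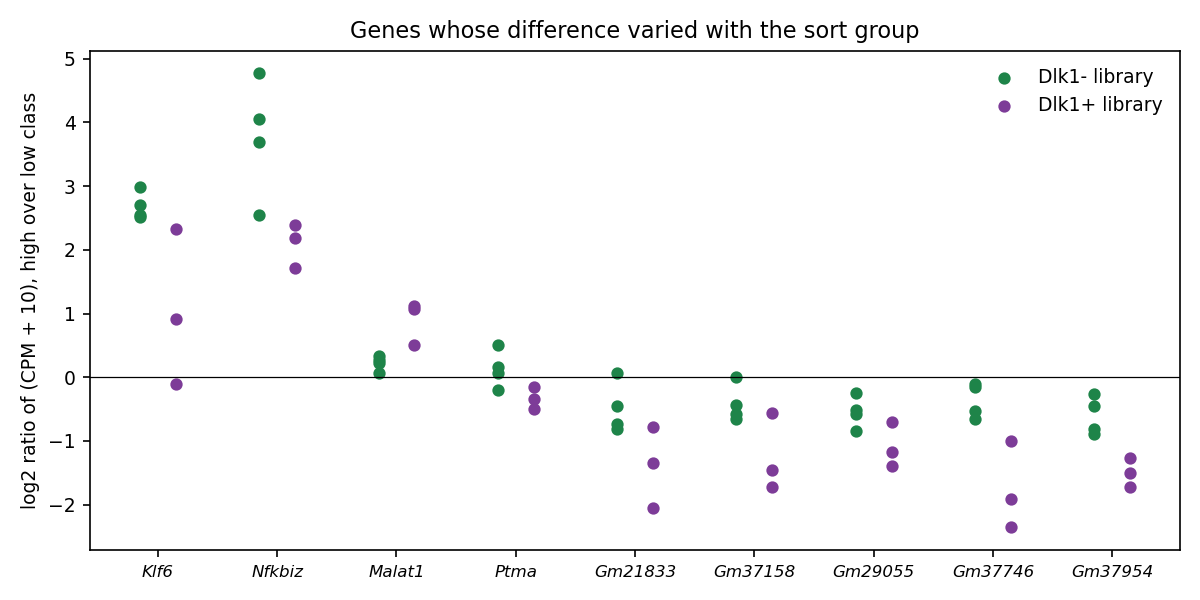
Log2 ratio of (CPM + 10), IE-high over IE-low class, in each Dlk1- (green) and Dlk1+ (purple) library for the 9 genes with a called interaction. Klf6 lies between 2.52 and 2.98 in Dlk1- libraries and between -0.11 and 2.33 in Dlk1+ libraries; Malat1 is the gene whose purple points lie above the green ones.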

How the data were processed

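The deposited tables hold estimated transcript counts per gene and barcode. The authors made them from UMI counts corrected for collisions, per the values themselves: undoing the correction for 4096 UMIs gave whole numbers within 3.64e-12. BWA 0.6.2-r126 and mm10 are named in the submitters' processing notes; read filters are not given in the sources used here. Each table's own 96 barcodes were used, and 10 of them were dropped in each Dlk1+ table. Barcode numbers recur between libraries (80 of 86 Dlk1+ and 96 of 96 Dlk1- numbers with a ranked cell) because the same barcode set was reused; 0 ranked cells had identical columns. No doublet caller was run. Sums per class were fitted with limma-voom (limma 3.58.1, R 4.3.3), scaled by trimmed mean of M-values, with library as a block and Benjamini-Hochberg adjustment at 0.05. Genes needed a count of 10 at the median size in 7 of 14 sums and a total of at least 15. The fit was tested on simulated data. A two-sided exact sign-flip test over libraries served measures per cell. Genes named in the text are the 12 highest and 12 lowest called genes with 1 sign in all libraries, called members of the 26 lists, Dlk1, and for lists without a call up to 2 members with most transcripts. Other genes in the text were picked with their values known. Members and lists were chosen with earlier results of these data known. Some genes are not reported here.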

Additional observations from a re-analysis of the deposited data

Results flagged for a closer look

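Over 84 sets of library values looked at, 7 had 1 library far from the others by Dixon's criterion, and chance alone marks about 1 in 20 such sets. Dlk1+ replicate 2, with 8 IE-high and 8 IE-low cells, was the library apart in 4 of them. Its IE-high and IE-low sums of 23341 and 31280 transcripts outside the score were the smallest of each class. A few molecules can therefore set the ratios given next for this library. Its log2 ratio of (CPM + 10) between the classes was -3.40 for Atf4, against 0.641 to 2.20 in the others (gap over range 0.722), and -2.07 for Btg1, against 0.294 to 1.44 (0.674). For H2-Ab1 it was -4.09, against -1.30 to 0.617 (0.593), and for Gm10719 it was 3.79, against -1.48 to -0.342 (0.784). Btg2 was highest in Dlk1- replicate 3, at 5.75 against 2.32 to 3.45 elsewhere (0.671), as was Fos when left out of the ranking, at 5.13 against 2.01 to 3.31 (0.583). Dusp2 was highest in Dlk1- replicate 2, at 4.23 against 0.954 to 1.79 (0.746).

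The contrast of the classes differed between Dlk1+ and Dlk1- libraries, by the interaction term, for 9 genes. The interaction (Dlk1+ minus Dlk1-, log2) was -1.75 for Klf6, -2.46 for Nfkbiz, 0.46 for Malat1 and -0.48 for Ptma, which encodes prothymosin alpha. For predicted transcripts it was -1.42 (Gm21833), -1.31 (Gm37158), -0.78 (Gm29055), -1.80 (Gm37746) and -0.97 (Gm37954). All 5 predicted transcripts lost the call without Dlk1+ replicate 1 (limma adjusted p from 0.607 to 0.744), the library in which Gm10800 and Gm26870 held 39% of the transcripts of the IE-low and 26.1% of those of the IE-high class. Ptma passed in 2 of 7 fits that each left out a library.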

How the results depend on the processing

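Against 68 higher and 49 lower genes, other settings gave higher and lower counts of 20 and 44 with the filter met in all sums, 45 and 30 with at least 1000 transcripts per cell, 20 and 11 with cells thinned to 2000 transcripts (495 genes tested), 30 and 8 with the mean of per-cell CPM, and 32 and 16 with limma on log2(CPM + 10). With library size alone, 98 genes were higher and 31 lower, so that 76% of calls were higher, against 58.1%; without Gm10800 and Gm26870 the share was 68.2%. Leaving out each library in turn gave 43 to 71 higher, 31 to 61 lower and 4 to 15 interaction genes. In settings added after seeing the data, 23 genes were higher in the Dlk1+ and 24 lower in the Dlk1- libraries alone, and 31 were lower without cells with over 50% Gm10800 and Gm26870. The G2M share (-0.133 percentage points) and that of Gm10800 and Gm26870 (-6.01) passed the test only as shares of summed transcripts. Of 55 called genes named by the rule, 54 kept their sign in every setting that tested them; the exception was Gm10719, at 0.05 without those cells. In all 7 fits that left out a library 35 passed, and 2 more passed in the fits that tested them. In all 24 settings, or as many as tested them, 16 passed. The 8 left-out score genes passed in every setting run. Causes were not tested. The edgeR and DESeq2 alternatives were not run.

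Without the library as a replicate block, 40 genes were higher and 9 lower. Equal replicate numbers of the sort groups were not treated as pairs. Their deviations correlated at 0.14, 0.02 and 0.17 for replicates 1, 2 and 4. The equal-numbered Dlk1- library was the best match for replicates 1 and 4, but not for replicate 2. Correlations this weak cannot decide whether the numbers were paired. With a replicate block, the score difference of Dlk1+ and Dlk1- was 0.0567 percentage points.

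Of the sparse lists, no lymphoid gene of 17, of which 8 are in the tables, and 4 of 27 S-phase genes passed the filter on low counts.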
